A study of Saccharomyces cerevisiae with 40 samples.

Results

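Transcript levels of 25 genes of the mevalonate and ergosterol pathway were described in 2 haploid parental strains of Saccharomyces cerevisiae and in 30 segregants of their cross. The genes were taken from a list of 32 sterol genes by name, and the rule used no measured value. The 25 are those found among the 4388 genes of the expression table. ERG12, ERG2, ERG28, ERG29, UPC2, ARE2 and SUT1 were not analysed here. 59A is haploid and was derived from EC1118, a wine yeast sold to cellars, and S288C is the laboratory reference strain. RNA was taken at mid-fermentation in a synthetic grape must, from 5 cultures of 59A, 5 cultures of S288C and 1 culture of each segregant. By the paper's methods, the fermenters were closed with airlocks to keep the cultures anaerobic. The segregants are haploid and come from 21 asci by their names, with 1 complete set of 4 sister spores (16a, 16b, 16c and 16d). Each level is a log2 ratio of a culture's RNA over a pool of the RNA of the 30 segregants. A value of 0 is a normalized signal equal to that of the pool. The segregants themselves did not average 0 for every gene, with means of 0.61 for ERG7 and -0.44 for ERG24. The median size of the segregant mean was 0.082 for the sterol genes, beside 0.116 for all genes.

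Ergosterol is the main sterol of yeast membranes. Its synthesis starts from acetyl-CoA, runs through mevalonate to farnesyl diphosphate and squalene, and then through a series of sterol intermediates. The conversion of squalene to ergosterol needs molecular oxygen at several steps and heme in 2 of its enzymes. Yeast that ferments without oxygen therefore depends on the sterol it has stored or can take up. The genes were grouped as mevalonate steps up to farnesyl diphosphate (8 of 9 listed genes present) and squalene synthesis (1 of 1). The steps after squalene were split into oxygen-requiring steps with the electron donor NCP1 (6 of 6) and steps that use no oxygen, here called later (6 of 9). Both groups alternate along the pathway, so their order here is not the order of the reactions. Regulators (1 of 2) and sterol esters and transport (3 of 5) completed the list.

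Over all genes, cultures of 59A correlated with each other at r of 0.847 to 0.96 and cultures of S288C at 0.82 to 0.932, against 0.393 to 0.591 between the strains. Pairs of segregants lay between -0.443 and 0.864. The direction of the ratio was checked on the ASP3 asparaginase genes, which the wine strain lacks. ASP3-1 lay between -0.73 and -0.523 in 59A and between 0.46 and 0.669 in S288C. All 25 sterol genes had a value on all 40 arrays.

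The first comparison set 59A against S288C. Of the 25 sterol genes, 5 were higher in 59A, 2 were higher in S288C and 18 did not pass the test (limma, Benjamini-Hochberg adjusted p under 0.01 over all genes). This is 28.0% of the sterol genes, beside 30.8% of the 4388 genes (1352 genes, 17.1% higher in 59A and 13.7% higher in S288C). The share called was therefore near that of the whole table. The median difference of the sterol genes was 0.06 on the log2 scale, beside 0.01 for all genes, and the median size of the difference was 0.11, beside 0.16. By step group, 4 of 8 mevalonate genes passed (3 higher in 59A and 1 higher in S288C). ERG9 passed, as did 2 of 6 genes in the oxygen group (1 in each direction). None of the 6 later genes, the regulator or the 3 ester and transport genes passed limma at this threshold. At an unadjusted p under 0.05, 1 later gene and 1 ester gene did, and 1 ester gene, ARE1, passed the methods' t-test. Over all genes 52.8% had an unadjusted p under 0.05. The groups are too small for these counts to set one step apart from another.

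**Figure D1:**
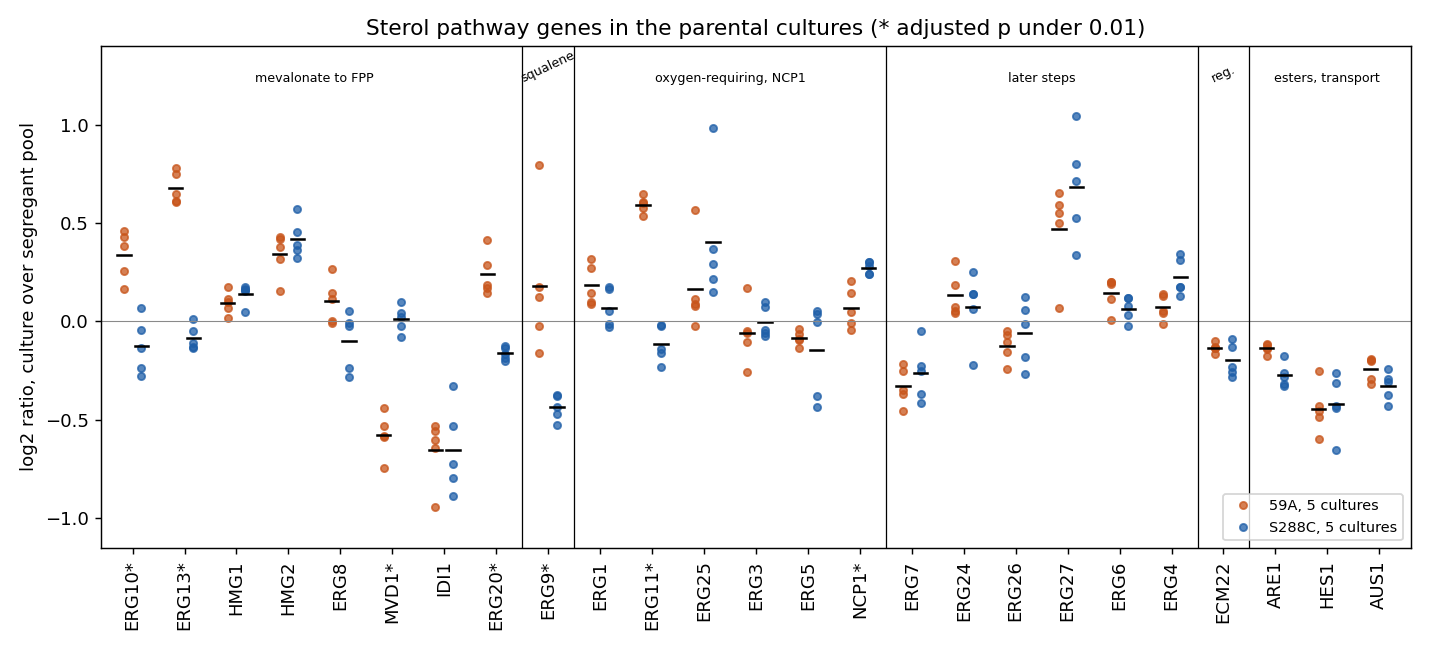
Log2 ratio over the segregant pool (vertical axis) for the 25 sterol genes, arranged by step group (horizontal axis, with FPP for farnesyl diphosphate and reg. for the regulator). Orange points are the 5 cultures of 59A and blue points the 5 cultures of S288C, bars are means, and stars mark the 7 genes that passed the test. ERG13 and ERG11 show the widest gaps between the strains with 59A above, and MVD1 the widest with S288C above.

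ERG13, which encodes the synthase of hydroxymethylglutaryl-CoA, had the largest difference of the 25. Its log2 ratios were 0.65, 0.75, 0.61, 0.78 and 0.61 in the cultures of 59A and 0.01, -0.13, -0.14, -0.05 and -0.11 in those of S288C. The strains did not overlap. The difference was 0.76 ± 0.05 (SE, n = 5 cultures each), or 1.69-fold, with a limma adjusted p of 1.91e-07. A difference of this size or larger was found for 5.74% of all genes. The exact permutation test over cultures gave p = 0.00794, the smallest it can give, for ERG13 and each of the other 6 genes called. These 7 were also the sterol genes whose cultures did not overlap between the strains, a property of 33.5% of all genes.

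ERG10, the acetoacetyl-CoA thiolase that opens the pathway, was also higher in 59A. Its cultures read 0.43, 0.16, 0.46, 0.38 and 0.25 in 59A against -0.14, -0.28, 0.07, -0.04 and -0.24 in S288C. The difference of 0.46 ± 0.08 (SE, n = 5 each) had a limma adjusted p of 0.000412. The call was lost with all 40 arrays in 1 fit, where the spread includes that among segregants (adjusted p = 0.183, range over 19 alternatives 0.000147 to 0.183). ERG20, the farnesyl diphosphate synthase at the branch point to sterols, quinones and prenylated proteins, lay at 0.17, 0.19, 0.29, 0.14 and 0.41 in 59A. In S288C it lay at -0.17, -0.14, -0.19, -0.20 and -0.13. The 59A cultures were all above 0 and the S288C cultures all below it, with a difference of 0.40 ± 0.06 (SE, n = 5 each, limma adjusted p = 8.82e-05). This call too was lost in the fit of all 40 arrays (adjusted p = 0.0713, range over 19 alternatives 5.63e-05 to 0.0713).

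MVD1, the mevalonate diphosphate decarboxylase, ran the other way. It was at -0.53, -0.59, -0.58, -0.75 and -0.44 in 59A and at 0.04, 0.10, -0.03, -0.08 and 0.02 in S288C. The difference was -0.59 ± 0.06 (SE, n = 5 each, limma adjusted p = 5.84e-06). In the fit of all 40 arrays it did not pass (adjusted p = 0.026, range over 19 alternatives 3.77e-06 to 0.026). The remaining mevalonate genes did not pass. HMG1 and HMG2 encode the 2 isoenzymes of the reductase that makes mevalonate, the main point of control of the pathway. HMG1 averaged 0.10 ± 0.06 in 59A and 0.14 ± 0.05 in S288C, and HMG2 0.34 ± 0.11 in 59A and 0.42 ± 0.10 in S288C (SD, n = 5 each). ERG8, the phosphomevalonate kinase, differed by 0.20 ± 0.08 (SE, limma adjusted p = 0.0485). IDI1, the isopentenyl diphosphate isomerase, averaged -0.66 ± 0.17 in 59A and -0.65 ± 0.22 in S288C (SD, n = 5 each). Both parents were thus below 0, as was the segregant mean of -0.25. The difference between the parents was -0.00 ± 0.11 (SE).

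ERG9, the squalene synthase, read 0.18, 0.12, -0.16, -0.02 and 0.79 in 59A and -0.38, -0.38, -0.43, -0.53 and -0.47 in S288C. The strains did not overlap, but the fifth culture of 59A was well above the other 4. The difference was 0.62 ± 0.14 (SE, n = 5 each, limma adjusted p = 0.00309). Without that culture it was 0.47. The call was lost with the methods' t-test (adjusted p = 0.0184) and in the fit of all 40 arrays, and over all 19 alternatives the adjusted p ran between 0.000254 and 0.252.

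In the oxygen group, ERG11 was higher in 59A. It encodes the heme-containing lanosterol demethylase, the target of azole antifungals. Its values were 0.60, 0.53, 0.65, 0.57 and 0.61 in 59A and -0.02, -0.14, -0.02, -0.23 and -0.16 in S288C. The difference of 0.71 ± 0.05 (SE, n = 5 each, limma adjusted p = 3.64e-07) corresponds to 1.63-fold. NCP1, the reductase that passes electrons to ERG11 and to other enzymes of the pathway, was lower in 59A. It read -0.01, -0.05, 0.14, 0.05 and 0.21 in 59A against 0.28, 0.30, 0.30, 0.24 and 0.24 in S288C. This difference was small, -0.20 ± 0.06 (SE, n = 5 each, limma adjusted p = 0.00934), and the call was lost when any single culture other than the fifth of 59A was left out (adjusted p of 0.0122 to 0.0271). It was also lost with the replicate number as a block (adjusted p = 0.0247), with the methods' t-test (adjusted p = 0.011) and in the fit of all 40 arrays (adjusted p = 0.539, range over all 19 alternatives 0.00257 to 0.539).

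The other 4 oxygen-requiring genes did not pass. ERG1, the squalene epoxidase and the first step that uses oxygen, averaged 0.18 ± 0.10 in 59A and 0.07 ± 0.09 in S288C (SD, n = 5 each). ERG25, the sterol methyl oxidase, had the widest spread of cultures within a strain when both strains were pooled (pooled SD 0.288). It read 0.11, 0.09, 0.57, 0.08 and -0.03 in 59A and 0.98, 0.22, 0.37, 0.15 and 0.29 in S288C, and 1 culture of each strain stood apart. Its difference was -0.24 ± 0.15 (SE, limma adjusted p = 0.222). The desaturases ERG3 and ERG5 differed by -0.06 ± 0.07 and 0.06 ± 0.10 (SE). ERG5, a heme enzyme like ERG11, had 2 cultures of S288C at -0.38 and -0.44 while the other 3 lay between -0.00 and 0.05.

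Among the later genes the differences were between -0.21 and 0.08. ERG7, the lanosterol synthase, averaged -0.33 ± 0.09 in 59A and -0.26 ± 0.14 in S288C (SD, n = 5 each). It was below 0 in all 10 parental cultures. ERG27, the sterol keto reductase, averaged 0.47 ± 0.23 in 59A and 0.68 ± 0.27 in S288C. ERG4, the last reductase of the pathway, had the lowest adjusted p of this group (difference -0.16 ± 0.06 SE, limma adjusted p = 0.0387). ERG24, the reductase that follows ERG11, ERG26, a decarboxylase, and ERG6, the sterol methyltransferase that is specific to fungi and plants, differed by 0.06 ± 0.09, -0.07 ± 0.08 and 0.08 ± 0.05 (SE). ECM22, a transcription factor of ergosterol genes, differed by 0.06 ± 0.05 (SE). ARE1, a sterol acyltransferase, differed by 0.14 ± 0.05 (SE, limma adjusted p = 0.0273), HES1, an oxysterol-binding protein homologue, by -0.02 ± 0.08 and AUS1, a sterol importer used without oxygen, by 0.09 ± 0.05.

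Of 60 further genes around the pathway, 42 were in the table, and 11 of them passed the parental test (26.2%, beside 30.8% of all genes), 7 higher in 59A and 4 higher in S288C. The counts were 3 of 17 for sterol import, transfer, storage and esters and 1 of 7 for regulators and turnover. They were 3 of 10 for other users of isoprenoid precursors and 0 of 3 for acetyl-CoA supply. The list of other oxygen-requiring lipid and heme steps, which includes the electron carriers CYB5 and CBR1, had 4 of 5. Of these 5 genes the methods' t-test called 2. In the acetyl-CoA list 1 gene had an unadjusted limma p under 0.05 and none passed the methods' t-test. Of the 11 genes, none of which passed in the fit of all 40 arrays, 4 differed by at least 0.5 with cultures that did not overlap. OLE1, the fatty acid desaturase, which also needs oxygen, averaged -0.03 ± 0.18 in 59A and 1.26 ± 0.21 in S288C (SD, n = 5 each), a difference of -1.29 ± 0.11 (SE, limma adjusted p = 7.75e-07). HEM14, an oxygen-requiring enzyme of heme synthesis, averaged 0.61 ± 0.21 in 59A and -0.29 ± 0.05 in S288C (SD, n = 5 each), and its difference was 0.90 ± 0.09 (SE, limma adjusted p = 2.75e-06). The genes of this list thus differed in both directions. YSP2, a sterol transfer protein, averaged -0.95 ± 0.07 in 59A and 0.03 ± 0.14 in S288C, and LPP1, a lipid phosphate phosphatase, -0.60 ± 0.09 in 59A and 0.02 ± 0.16 in S288C (SD, n = 5 each).

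The second comparison described how the genes varied among the segregants. The SD over the 30 segregants had a median of 0.258 for the sterol genes, beside 0.287 for all genes. The pooled SD of cultures within a parental strain had a median of 0.105, beside 0.108. The spread over segregants exceeded the spread of cultures for all 25 sterol genes, as it did for 4309 of the 4388 genes. The median ratio of the 2 SDs was 2.45, beside 2.70 for all genes. With 1 culture per segregant, genotype and culture cannot be told apart within a segregant.

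By step, the median SD over segregants was 0.26 for mevalonate genes, 0.27 for the oxygen group, 0.32 for the later genes and 0.25 for esters and transport. ERG9 was the most variable sterol gene (SD 0.585, range -1.40 to 0.82), and 6.04% of all genes varied as much or more. ERG9 was also the gene with the second widest spread of cultures within a strain (pooled SD 0.263). HMG1 was the least variable (SD 0.134, range -0.27 to 0.37). Measured against the spread of cultures, ARE1 varied most among segregants, with a ratio of 5.19, and HES1 least, with a ratio of 1.12.

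**Figure D2:**
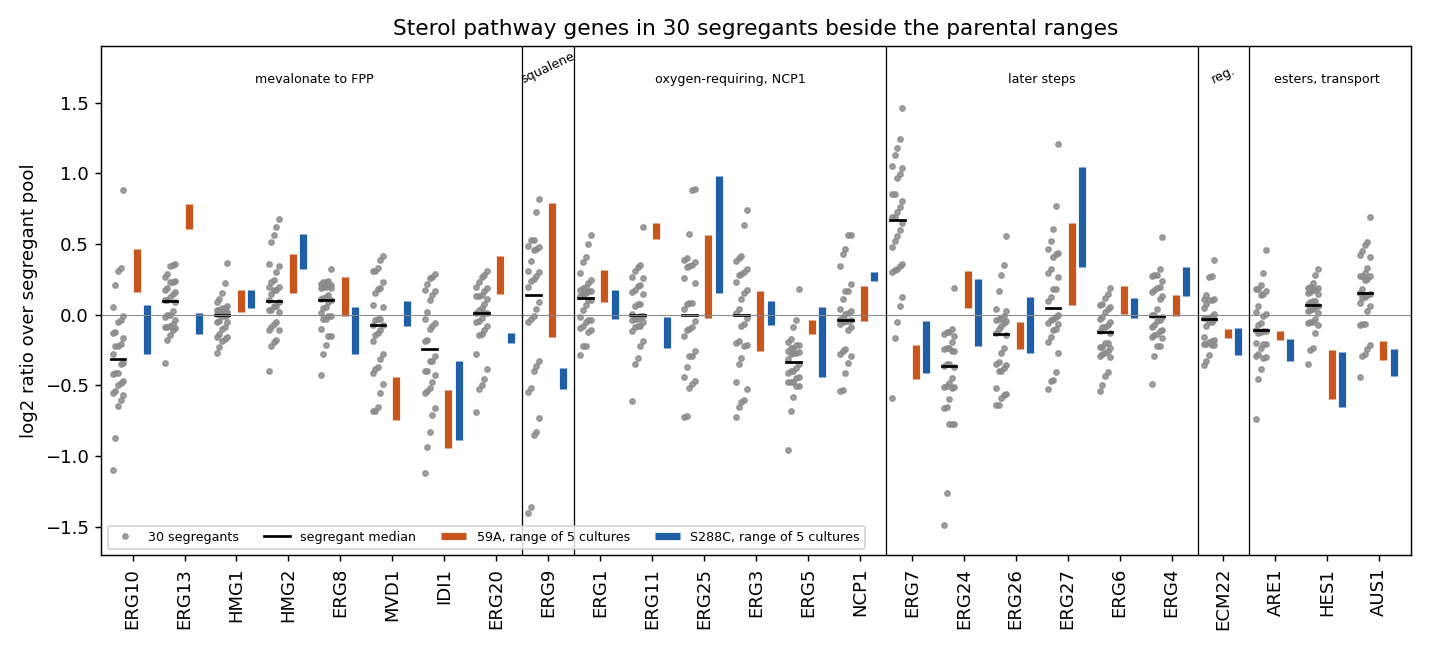
Log2 ratio over the segregant pool (vertical axis) for each sterol gene, arranged by step group (horizontal axis, with FPP for farnesyl diphosphate and reg. for the regulator). Grey points are the 30 segregants with their median as a black bar, and the orange and blue bars are the ranges of the 5 cultures of 59A and of S288C. ERG7 and HES1 lie above both parental ranges in most segregants and ERG24 lies below them, while ERG13 reaches no segregant within the 59A range.

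For the 7 genes that differed between the parents, the segregants were seldom spread evenly between the parental levels. ERG13 ran between -0.34 and 0.36 with a median of 0.10, and no segregant reached the lowest 59A culture at 0.61. By distance to the parental means, 3 segregants were nearer 59A and 27 nearer S288C. For ERG11 6 were nearer 59A and 24 nearer S288C, and 1 segregant (5a at 0.62) entered the range of 59A. For ERG10 the split was 4 nearer 59A and 26 nearer S288C, and 15 segregants lay below all parental cultures. ERG20 was more even, with 13 nearer 59A and 17 nearer S288C. Its range was -0.69 to 0.31, 6 segregants were below every parental culture and none was above. MVD1, lower in 59A than in S288C, had 9 segregants nearer 59A and 21 nearer S288C, and 9 were above all parental cultures (range -0.68 to 0.41). NCP1 had 24 nearer 59A and 6 nearer S288C, but 12 segregants lay below all parental cultures and 5 above them. ERG9 had 20 nearer 59A and 10 nearer S288C, with 6 below all parental cultures and 1 above.

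The levels of several genes in the segregants were outside those of both parents. This comparison, segregants minus the mean of both parents, was chosen after seeing the data. In limma on all 40 arrays, 8 of the 25 sterol genes passed an adjusted p of 0.01 (32.0%, beside 28.2% of all genes), 4 higher and 4 lower in segregants. The share was near that of the table, where 526 genes were higher and 712 lower in segregants. By step the calls were 1 higher and 1 lower of 8 mevalonate genes, none of 6 in the oxygen group, 1 higher and 3 lower of 6 later genes, and 2 higher of 3 ester and transport genes. In the oxygen group ERG11 and ERG5 had unadjusted limma p-values under 0.05 (0.015 and 0.00395), and 2 passed with weights that let the groups differ in variance. Parents and segregants were on separate arrays, and no hybridisation date or batch entered the fit. Any difference between these arrays that followed strain type cannot be told apart from it.

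Of the 25 genes ERG7 showed the largest shift. The segregants lay between -0.59 and 1.46 with a median of 0.67, against -0.45 to -0.22 in 59A and -0.42 to -0.05 in S288C. Of 30 segregants, 27 were above every parental culture and 1 (5a) was below. The shift was 0.90 ± 0.14 (SE, limma adjusted p = 3.01e-06), and 2.19% of all genes had a shift of this size or larger. The mean of ERG7 over the segregants was 0.61 although the other channel held a pool of these same segregants, and 2.87% of genes had a segregant mean at least this far from 0. No array was dye-swapped, and the part of the dyes in this value was not tested.

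HES1 was above every parental culture in 29 of 30 segregants, with a median of 0.07 in segregants and means of -0.44 ± 0.13 in 59A and -0.42 ± 0.15 in S288C (SD, n = 5 each). The shift was 0.48 ± 0.06 (SE). AUS1 was above every parental culture in 25 segregants, with a shift of 0.43 ± 0.09 (SE), and IDI1 in 17, with a shift of 0.40 ± 0.12 (SE). ERG24 was below every parental culture in 23 segregants (median -0.36, range -1.49 to 0.19), with a shift of -0.54 ± 0.11 (SE). ERG6 was below every parental culture in 21 segregants with a shift of -0.24 ± 0.07 (SE), and ERG27 in 15 with a shift of -0.46 ± 0.13 (SE). ERG13, which lay between the parents, was 0.23 lower than their mean (difference -0.23 ± 0.06 SE). The adjusted p of these 8 genes was at most 0.00643 with the first spore of each ascus alone.

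The sterol genes did not vary as 1 block over the segregants. Over their 300 pairs the median Spearman rho was 0.04, beside -0.01 over all gene pairs, and 2.67% of the pairs had a rho over 0.6, beside 3.52%. Each rho here describes 30 segregants that share the pool and, in part, an ascus. The highest were those of ERG9 with ERG25 (0.74), MVD1 with ERG25 (0.72), ERG9 with ERG3 (0.69), ERG20 with ERG11 (0.63), ERG25 with ERG3 (0.62), ERG7 with ERG26 (0.61), HMG2 with ERG3 (0.61) and HMG2 with ERG24 (0.61). Except ERG7 with ERG26 and ERG25 with ERG3, these pairs joined genes of different steps. ERG25, MVD1, ERG3 and ERG9 also followed the main axis of variation of the whole table. That axis, computed without the sterol genes, held 31.0% of the variance, and its rho was 0.82 with ERG25, 0.72 with MVD1, 0.67 with ERG3 and 0.64 with ERG9. IDI1 and ECM22 ran opposite to it (-0.53 for each), and HES1 and ERG13 were at 0.47 and 0.46. ERG20 and ERG11 followed it less (0.24 and 0.25).

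**Figure D3:**
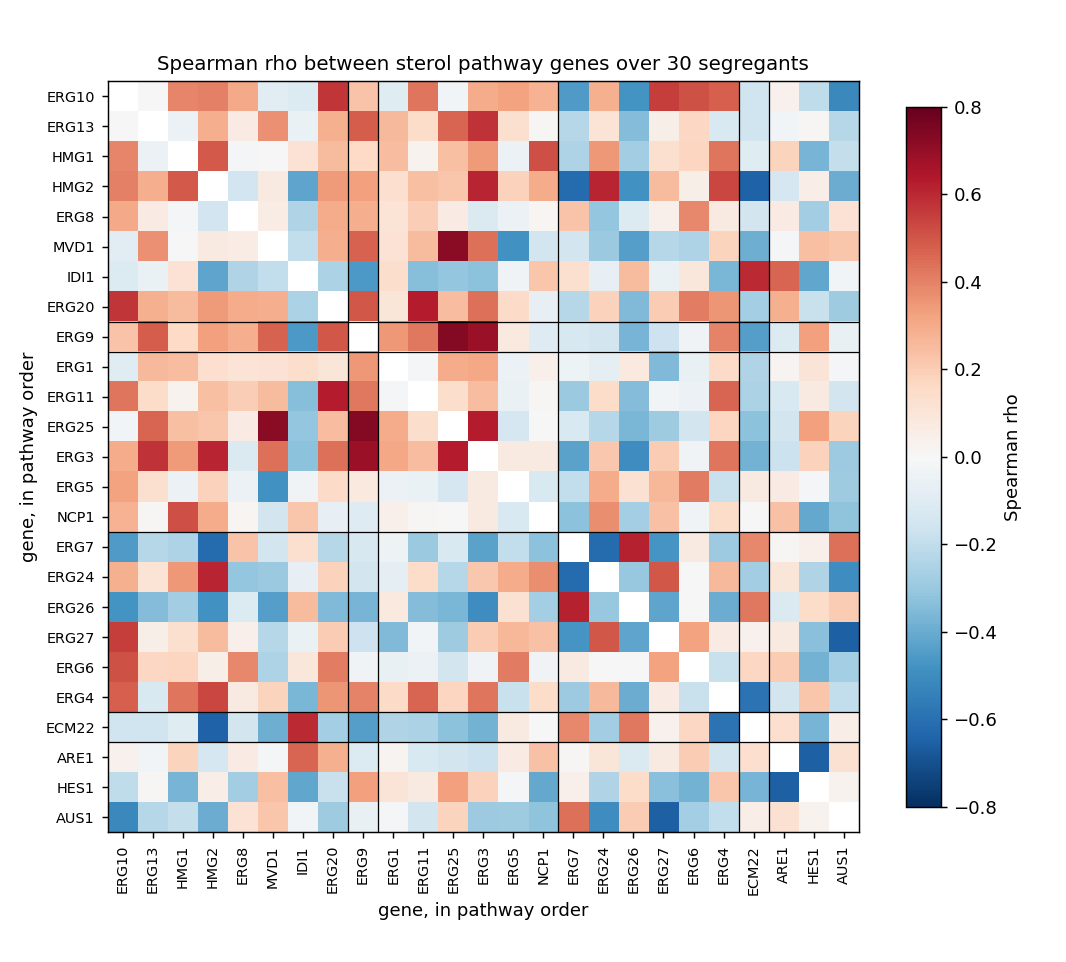
Spearman rho over the 30 segregants for each pair of sterol genes (both axes by step group though labelled pathway order, lines between groups, colour scale at the right). Red cells mark pairs with a positive rho, up to 0.74 for ERG9 with ERG25, and blue cells mark opposed pairs such as ERG27 with AUS1 at -0.65.

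A rho under -0.6 was found for 1.67% of the pairs, beside 2.10% of all gene pairs. The lowest rho were those of ERG27 with AUS1 (-0.65), ARE1 with HES1 (-0.65), HMG2 with ECM22 (-0.64), HMG2 with ERG7 (-0.61) and ERG7 with ERG24 (-0.61). ERG7 and ERG24, whose enzymes act on either side of ERG11, were thus opposed among segregants as well as shifted in opposite directions from the parents. The sister spores of ascus 16 show the range within 1 meiosis. MVD1 was 0.23, 0.31, -0.19 and -0.68 in 16a, 16b, 16c and 16d, and ERG25 was 0.33, 0.40, -0.15 and -0.44, so the same 2 spores were high for both. ERG20 was -0.28, -0.15, 0.14 and -0.39 in the same order.

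The third comparison set each gene against 10 fermentation traits over the segregants: the maximal fermentation rate (Rmax), the rates when fermentation had reached the percentage in the name (R50 and R70), fermentation duration (Fd), cell population (Cp), assimilated nitrogen (Nass), and the succinate (Suc), glycerol (Gly), acetate (Ace) and pyruvate (Pyr) produced. A relation was called at a Spearman rho over 0.6 in size and a Benjamini-Hochberg adjusted p under 0.05 over all genes of a trait, the thresholds of the methods. Of 250 relations between 25 genes and 10 traits, 5 were called (2.0%, beside 1.16% of all 43880 gene-trait relations). Their unadjusted p was under 0.05 in 18.4%, beside 17.6% of all. The 5 relations involved ERG20 (3 of them), ERG24 and ERG10. Those of ERG20 and ERG24 are already in the paper's list of correlations, drawn from the same arrays and traits, and that of ERG10 is not. No gene of the oxygen group, ECM22 or the ester and transport genes was called with any trait, and their rho ran between -0.46 and 0.46.

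**Figure D4:**
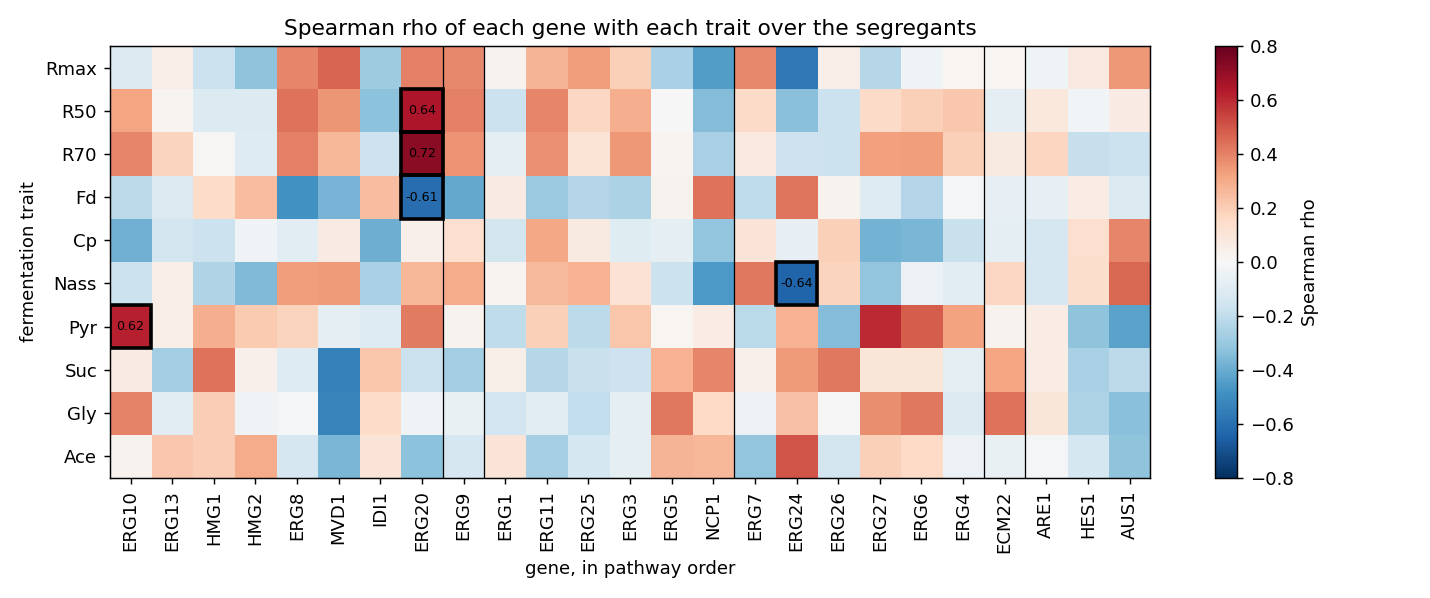
Spearman rho over the segregants (colour) of each sterol gene (horizontal axis, by step group though labelled pathway order) with each of the 10 traits (vertical axis). Boxes with a value mark the 5 relations called, which are ERG20 with R50, R70 and Fd, ERG24 with Nass and ERG10 with Pyr.

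ERG20 rose with the fermentation rate late in fermentation. Segregants with more ERG20 transcript had a higher R70 (rho = 0.72, permutation p = 2e-05, adjusted p = 0.00113, r = 0.66, permutation p = 6e-05, n = 30). R70 ran between 0.67 and 2.08 g CO2 per l and h with a median of 1.36. Of all genes 2.32% were called with R70, 1.14% positively. The 6 segregants with the least ERG20 were 23b, 18c, 25a, 22c, 16d and 16a, at -0.69, -0.53, -0.50, -0.46, -0.39 and -0.28. Their R70 values were 0.96, 1.12, 0.95, 0.67, 1.25 and 1.00, all below the median. The 4 with the most ERG20 were 31b, 1b, 28b and 22a, at 0.31, 0.28, 0.27 and 0.23, with R70 values of 1.85, 2.07, 1.99 and 1.99. The relation was not uniform, since 29c had an R70 of 0.70 with ERG20 near 0, at -0.05. Without the 2 segregants farthest from the median of R70, r was 0.66, and with the first spore of each ascus rho was 0.70 (adjusted p = 0.0261, range over 8 alternatives 0.000705 to 0.0261).

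The same gene was called with R50 and with Fd, traits that were closely tied to R70 in these strains (rho of R70 with R50 0.89 and with Fd -0.90). With R50, ERG20 had a rho of 0.64 (permutation p = 2e-04, adjusted p = 0.0154, r = 0.58, permutation p = 6.4e-04, n = 30), beside 1.41% of genes called (0.661% positively). Without the 2 segregants farthest from the median, r was 0.63. With Fd it had a rho of -0.61 (permutation p = 3.2e-04, adjusted p = 0.0226, r = -0.54, permutation p = 0.00226, n = 30), beside 1.89% of genes called (0.798% negatively). Without the 2 farthest segregants r was -0.57 and rho -0.56, and the call with Fd was lost (adjusted p = 0.0845). It was also lost given the main axis (rho -0.60, under 0.6 in size before rounding). With Pearson's r in place of rho, neither R50 nor Fd was called, since r was under 0.6 in size (0.58 and -0.54). The adjusted permutation p of r, which did not enter that call, was 0.0547 and 0.0876. Among first spores alone both also fell below the threshold, at rho 0.53 with R50 (adjusted p = 0.231, range over 8 alternatives 0.00758 to 0.231) and -0.53 with Fd (adjusted p = 0.2, range 0.0193 to 0.2). ERG20 with Rmax had a rho of 0.41 (adjusted p = 0.169), and no difference between its relations to the 4 rate traits was tested. The main axis of the table had a rho of 0.07 with R70, and given that axis the rho of ERG20 with R70 was 0.73.

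The steps next to ERG20 in the pathway were not called with these traits. With R70, rho was -0.17 for IDI1, the step before it, and 0.36 for ERG9, the step after it. The other mevalonate genes and ERG11 had rho of 0.40 for ERG8, 0.39 for ERG10, 0.26 for MVD1, 0.18 for ERG13 and 0.36 for ERG11, with HMG1 and HMG2 at 0.01 and -0.10. By step, the median rho with R70 was 0.22 for mevalonate genes, 0.06 for the oxygen group and 0.13 for the later genes, beside -0.01 for all genes, and 17 of 25 sterol genes had a positive sign. ERG8 had the next lowest rho with Fd after ERG20, -0.48 (adjusted p = 0.113).

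**Figure D5:**
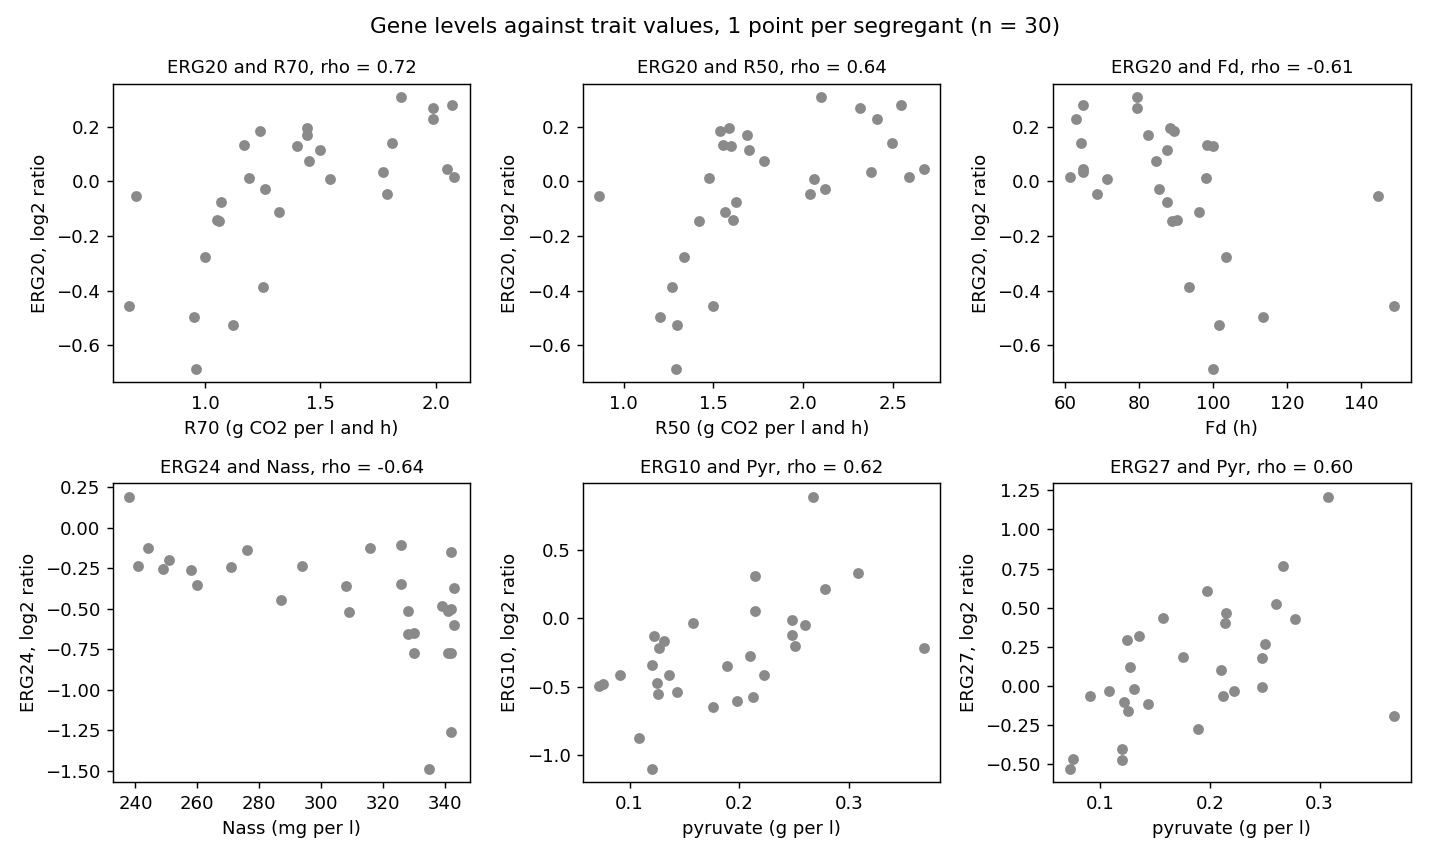
Log2 ratio of a sterol gene (vertical axes) against a trait value (horizontal axes, units as labelled), with 1 point per segregant. The upper row shows ERG20 with R70, R50 and Fd, where the 6 segregants lowest in ERG20 had an R70 of at most 1.25 g CO2 per l and h; the lower row shows ERG24 with Nass and ERG10 and ERG27 with pyruvate.

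ERG24 fell with nitrogen assimilation. Segregants that assimilated more nitrogen had less ERG24 transcript (rho = -0.64, permutation p = 2e-04, adjusted p = 0.0204, r = -0.59, permutation p = 4.3e-04, n = 30). Nass ran between 238 and 343 mg per l with a median of 326, and 1.32% of genes were called with it, 0.98% negatively. The paper described Nass as bimodal among the segregants and measured it in a single fermentation of each. Many segregants lay close to the maximum, where ranks rest on small differences. The lowest 2 values of ERG24, -1.49 in 19b and -1.26 in 4c, stood beside 335 and 342 mg per l. The highest, 0.19 in 14a, stood beside 238 mg per l, the lowest nitrogen value of all. Segregant 14b was an exception, with ERG24 at -0.15 and 342 mg per l. Without the 2 segregants farthest from the median of Nass, rho was -0.60 and r was -0.53, and rho then missed the threshold (adjusted p = 0.0805, range over 8 alternatives 0.0161 to 0.0805). Among first spores rho was -0.75. With Rmax, which followed Nass (rho 0.89), ERG24 had a rho of -0.57 (adjusted p = 0.0412), short of 0.6 in size, and 1.44% of genes were called.

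ERG10 rose with pyruvate. Segregants with more ERG10 released more pyruvate (rho = 0.62, permutation p = 2.5e-04, adjusted p = 0.0113, r = 0.57, permutation p = 9.3e-04, n = 30), and 3.17% of genes were called with this trait, 2.42% positively. Pyr ran between 0.0725 and 0.368 g per l with a median of 0.182. By the paper's methods, metabolites were measured at the end of fermentation, while RNA was taken at mid-fermentation. The paper reported weak or no correlation of expression with metabolite amounts and listed no gene for pyruvate. ERG10 was lowest in 23b at -1.096, beside 0.12 g per l, and highest in 5a at 0.88, beside 0.27 g per l. The segregant with the most pyruvate, 31b, had ERG10 at -0.22. Without the 2 farthest segregants r was 0.59 and rho 0.59, just under the threshold. ERG27 missed the threshold by little (rho = 0.598, adjusted p = 0.0148), and its rho was 0.69 among first spores and 0.68 without the 2 farthest segregants. ERG10 and ERG27 had a rho of 0.55 with each other. ERG6 followed with a rho of 0.49 (adjusted p = 0.0545).

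For Cp, Suc, Gly and Ace no gene of the table was called. At an unadjusted p under 0.05 the sterol genes numbered 4 for Cp (16.0%, beside 13.2% of all genes), 4 for Suc (16.0%, beside 9.41%), 6 for Gly (24.0%, beside 22.1%) and 2 for Ace (8.0%, beside 10.9%), and Pearson's r called none for these traits either. The largest values were those of MVD1 with Suc (-0.54, adjusted p = 0.329) and with Gly (-0.54, adjusted p = 0.104), and of ERG24 with Ace (0.50, adjusted p = 0.251). Of the 42 further genes around the pathway, 3 of 420 relations were called (0.714%, beside 1.16% of all). KES1, an oxysterol-binding protein homologue, fell with Rmax (rho = -0.61, adjusted p = 0.025). CBR1, a reductase of cytochrome b5, rose with Nass (rho = 0.60, adjusted p = 0.0332). NSG1, which stabilises the HMG2 protein, fell with Pyr (rho = -0.63, adjusted p = 0.0111). The relations of KES1 and CBR1 are also in the paper's list.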

How the data were processed

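Expression values were deposited as log2 ratios from 2-colour arrays of spotted oligonucleotides. RNA of each culture was labelled with Cy3 and a pool of RNA of the 30 segregants with Cy5. Using limma in R 2.9.2, the authors applied print-tip loess and then quantile normalization, and took the mean of 2 technical hybridisations. The table's scale is not stated in it. Its direction, culture over pool, was taken from an axis of the study's supplement and checked on the ASP3 genes. Some segregant arrays correlated negatively with others (down to -0.443), as different genotypes against 1 pool can. All 40 columns were mapped to samples by their labels and 0 were left out. Array medians lay between -0.026 and 0.028. Of the array's gene names 4104 matched the R64 gene table and 284 were kept as given. Probe sequences were not used, so cross-hybridisation between paralogs such as HMG1 and HMG2 was not tested. The trait table, other deposited values in the authors' units, gives 1 value per segregant.

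The 10 parental arrays were fitted with limma 3.58.1 (R 4.3.3), with Benjamini-Hochberg adjustment over 4388 genes and an exact permutation test over all groupings of the cultures. Traits were set against genes with Spearman's rho and 100000 permutations in Python 3.11.15 (numpy 2.4.6, scipy 1.17.1, pandas 2.3.3). Tests are two-sided. Both were tested on simulated data. Plots were drawn with matplotlib 3.10.9. The list of members, matched by name alone, and the gene lists and thresholds were drawn up with earlier results of these data known. All sterol genes present are named, and of the further genes those past the parental test with a difference of at least 0.5 and no overlap or called with a trait. Cultures of a parent were independent fermentations by the methods. Precision is limited by how many arrays there were, and no depth applies. Labels and methods differ on culture volume, labelling kit and the mating type of S288C, and none enters a test. No coordinates are given, because the array names no genome build.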

Additional observations from a re-analysis of the deposited data

Results flagged for a closer look

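In 58 sets of 5 cultures of a parental strain, 6 single values stood apart from the other 4 by Dixon's criterion, which flags about 1 set in 20 by chance (2.9 sets here). ERG25 had 1 such culture in each strain, culture 3 of 59A at 0.567 (others -0.026 to 0.112) and culture 1 of S288C at 0.981 (others 0.152 to 0.37). ERG27 was at 0.066 in culture 5 of 59A (others 0.498 to 0.651), and IDI1 was at -0.941 in the same culture (others -0.646 to -0.531). HMG1 was at 0.046 in culture 2 of S288C (others 0.154 to 0.177), and YSP2 at 0.271 in the same culture (others -0.092 to -0.002). When each gene was refitted without its own cultures that stood apart, an alternative chosen after seeing the data, 7 sterol genes were called between the parents, and ERG25 differed by -0.19 ± 0.06 (SE, limma adjusted p = 0.0255, range over its 19 alternatives 0.0255 to 1.0).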

How the results depend on the processing

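The 7 sterol genes called between the parents numbered 6 with the replicate number as a block, 6 with the methods' t-test (ERG9 and NCP1 lost, ARE1 gained), 5 with Benjamini-Yekutieli adjustment, 10 at an adjusted p under 0.05 and 6 to 7 when each culture was left out. The block lost only NCP1 among the sterol genes. Deviations from the strain mean correlated between -0.29 and 0.392 for cultures of the same number and between -0.374 and 0.504 for others. With so few pairs of the same number, this check cannot decide whether the numbers pair the cultures. With all 40 arrays in 1 fit, where the spread includes that among segregants by construction, 2 sterol genes (ERG11 and ERG13) and 0 of the 11 further genes were called. The further genes called were 7 with Benjamini-Yekutieli adjustment, 10 with the block and 9 to 14 when each culture was left out. Over 475 refits of single sterol genes between the parents none changed direction where the difference was called, 19 lost a call and 4 gained one. The 5 trait relations became 1 with Pearson's r (ERG20 with R70), 3 without the 2 segregants farthest from a trait's median, 4 with first spores (both of these include ERG27 with Pyr, which is not among the 5), 4 given the main axis (chosen after seeing the data) and 7 with no minimum on rho. The 8 genes that differed between segregants and parents became 14 with array weights by group, where 49.2% of all genes were called. The median spread over segregants was 0.241 as a median absolute deviation. Each segregant had 1 culture, so the culture spread of a segregant was not measured.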
